A study of Homo sapiens with 6 samples.

Results

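The phospholipase D (PLD) family was examined in MDA-MB-231, a line derived from a human breast cancer, in which the lactate receptor GPR81 was targeted by a short hairpin RNA. The members were chosen by name as PLD1 to PLD6, and all 6 had a row among the 26255 gene symbols of the expression table. The family was singled out because of the PLD5 difference between the groups, so every difference between groups in a member is given as a description with no p, and whether a member passes a threshold only sorts it and supports nothing. RNA was sequenced from 3 libraries with the control hairpin (shNT) and from 3 libraries labelled shGPR81. According to the methods of the study, the cells were infected with lentivirus and selected in puromycin, so both groups carried a hairpin vector and had passed the selection. The methods speak of resistant clones and do not say whether a group was 1 clone or a pool. Nothing says that the 3 libraries of a group came from separate cultures, so p-values measure the spread between these libraries, which may be technical. The methods list a pair of GPR81 hairpins and do not say which of them the sequenced cells carried. Values are FPKM, read numbers scaled to transcript length and to library size, so that levels can be compared between genes. RNA came from bulk cells, in which fewer cells with a transcript and less of it per cell cannot be told apart.

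Phospholipases D cut the head group from a phospholipid and leave phosphatidic acid, a signalling lipid and a building block of other lipids. PLD1 and PLD2 are the classical enzymes that split phosphatidylcholine, and small GTPases, protein kinase C and the lipid PIP2 activate PLD1. PLD3 and PLD4 are membrane proteins of the endolysosomal compartment that digest nucleic acids rather than phospholipids. PLD6 sits on the outer mitochondrial membrane, where it acts on cardiolipin, and takes part in making piRNAs in germ cells. PLD5 has no known enzymatic activity.

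The start regions of PLD5 and PLD3 are shown, because PLD5 is the member that differed most between the groups and PLD3 the most abundant one. They are the RefSeq windows from 250 bases before to 50 bases after an annotated start on GRCh38.p14, 300 bases long. PLD5 has 2 such windows, both on the minus strand, at chr1:242524648-242524947 and chr1:242449419-242449718, and capitals mark CpG dinucleotides. For PLD3 the first of 2 windows is given, at chr19:40348445-40348744 on the plus strand, and capitals mark TCACGTGA, the core of the CLEAR element found in many lysosomal genes.
PLD5 first start: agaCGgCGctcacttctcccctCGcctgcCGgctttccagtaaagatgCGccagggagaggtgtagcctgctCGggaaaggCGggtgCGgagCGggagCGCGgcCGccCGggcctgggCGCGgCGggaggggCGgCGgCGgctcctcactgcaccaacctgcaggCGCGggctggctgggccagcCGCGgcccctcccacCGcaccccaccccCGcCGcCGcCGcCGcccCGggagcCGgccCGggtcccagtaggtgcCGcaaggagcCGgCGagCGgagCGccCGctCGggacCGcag
PLD5 second start: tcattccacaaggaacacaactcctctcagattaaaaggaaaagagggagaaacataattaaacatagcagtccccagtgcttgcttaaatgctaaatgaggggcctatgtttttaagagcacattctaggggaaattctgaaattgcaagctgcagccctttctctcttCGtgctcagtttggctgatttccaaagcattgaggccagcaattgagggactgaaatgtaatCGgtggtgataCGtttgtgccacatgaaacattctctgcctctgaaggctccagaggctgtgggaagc
PLD3 first start: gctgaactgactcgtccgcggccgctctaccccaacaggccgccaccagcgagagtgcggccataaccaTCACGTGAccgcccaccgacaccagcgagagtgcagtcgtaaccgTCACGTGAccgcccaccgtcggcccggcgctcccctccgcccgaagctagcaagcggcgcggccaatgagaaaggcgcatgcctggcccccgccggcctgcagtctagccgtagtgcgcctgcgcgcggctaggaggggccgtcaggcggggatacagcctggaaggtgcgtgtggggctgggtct
The first PLD5 window held 40 CpG, more than 92.4% of 35116 windows of this length, and the second held 3, where the median was 14. The window of PLD2 also held 40. FPKM were given per gene, so the start that was used in these cells was not analysed here. The PLD3 window held TCACGTGA 2 times, a motif present in 0.980% of the windows (both strands), and none of the other 6 windows listed for the members held it. TGACGTCA, the cAMP response element, was in 1.85% of all windows and in none of the 7 windows of PLD1 to PLD5. PLD6 had no window in the table. A match of letters is a description and not a binding site.

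The targeted gene HCAR1, which encodes GPR81, was at 0.968, 1.02 and 1.36 FPKM in shNT replicates 1, 2 and 3 and at 0.978, 0.891 and 0.396 FPKM in the libraries labelled shGPR81. The groups overlapped, and the difference was -0.57 on the log2 scale (SE 0.31, adjusted p = 0.38, limma). An exact two-sided permutation test of the FPKM gave p = 0.2, and the smallest p for groups of this size is 0.1. Without shGPR81 replicate 3 the log2 difference was -0.22, so most of the difference came from that library. The study itself reported reduced GPR81 by RT-qPCR and western blotting in the lines of each GPR81 hairpin. Whether the same RNA was sequenced is not stated. All 10 basal and mesenchymal markers of the line were at 1 FPKM or more and summed to 5632 to 6774 FPKM in shNT and 6825 to 7497 FPKM in the libraries labelled shGPR81. Of 10 luminal markers 7 were at 1 FPKM or more, and ESR1, PGR and CDH1 were at 0 in all 6 libraries. KRT18 averaged 221 and 194 FPKM in shNT and in the libraries labelled shGPR81, KRT8 167 and 139 FPKM and KRT19 78.1 and 112 FPKM. The luminal sum was 411 to 526 FPKM in shNT and 431 to 500 FPKM in the libraries labelled shGPR81. ERBB3, a receptor of that list, was called higher, at 1.43 and 2.69 FPKM. Endothelial markers summed to 0.889 to 1.44 FPKM and fibroblast markers to 0.503 to 1.19 FPKM. Of 6 leukocyte markers, CD3E was at 0 in all 6 libraries, PTPRC averaged 0.0143 FPKM in the libraries labelled shGPR81 and 0 in shNT, and CD68, a lysosomal protein of many cell types, made up most of a sum of 79.3 to 103 FPKM in shNT and 112 to 131 FPKM in the libraries labelled shGPR81. The part of other cells in the PLD levels was not tested. Relative depth was 1 to 1.07 between the libraries, with medians over genes of 11753855 to 12551991 reads estimated from the step of the FPKM values. These are rough estimates. In shNT replicate 1 the quartiles over 3244 genes were 7946075 and 12955603 reads.

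PLD5 was at 1.13, 1.11 and 1.29 FPKM in shNT replicates 1, 2 and 3. In the libraries labelled shGPR81 it was at 0.0874, 0.0259 and 0.0776 FPKM. All 3 shNT libraries lay far above all 3 libraries labelled shGPR81, and the groups did not overlap. The means were 1.18 ± 0.096 and 0.0636 ± 0.0331 FPKM (SD, n = 3 each), an 18.5-fold difference in mean FPKM. On the scale of log2(FPKM + 0.1) the difference was -2.98 (SE 0.24), the 21st lowest of the 14349 genes in the fit. These PLD5 values chose the family and are no evidence about it.

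**Figure D1:**
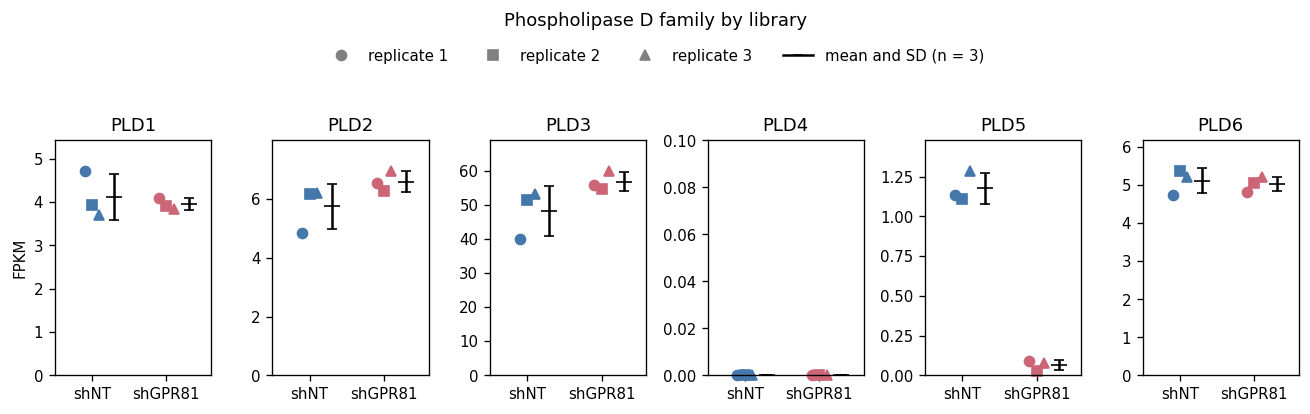
FPKM of each PLD member in each library, by group (blue shNT, red shGPR81; symbols mark the replicate number), with the mean and SD of 3 libraries in black and each axis from 0. PLD5 lies above 1 FPKM in the shNT libraries and below 0.1 FPKM in those labelled shGPR81, PLD4 is at 0 throughout, and shNT replicate 1 is the lowest library for PLD2, PLD3 and PLD6 and the highest for PLD1.

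PLD5 was a low gene, at the 14.6th percentile of mean level among the genes tested, so few reads stand behind it. Its values were not whole multiples of 1 step, so its reads can only be estimated. Taking the lowest value, in shGPR81 replicate 2, as 1 whole read puts the fewest reads at about 41, 41 and 47 in shNT and 3, 1 and 3 in the libraries labelled shGPR81. The longest annotated coding transcript, of 8900 bases, with the median estimated depth gives about 119, 118 and 135 reads in shNT. For the libraries labelled shGPR81 it gives 9.77, 2.86 and 8.57. These are estimates and no upper limit: for PLD6 in shNT replicate 1 the same estimate was 144 where its values stood for 155 reads. For HCAR1 in that library the estimate was 54.3 where its values stood for 37 reads. The estimate can therefore be too low or too high. With the fewest reads rounded to whole numbers, the depth-corrected ratio of shNT to shGPR81 was 19.4. This rounding took 3.42 to 3 in shGPR81 replicate 1, and the ratio of mean FPKM was 18.5. Both describe the difference that chose the family and are not separate estimates of it. Between libraries of the labelled shGPR81 group the coefficient of variation of PLD5 was 52.0%, and in shNT it was 8.16%. Of genes with a similar mean over all 6 libraries, 9.42% varied more in the labelled shGPR81 group. The median of these genes in shNT was 21.9%. PLD5 lay below its mean over all libraries in the labelled shGPR81 group and above it in shNT. These genes therefore do not match its level within a group, and nothing is read from the comparison. The size on the log2 scale depended on the value added before the logarithm: it was -4.13 with 0.01 FPKM and -1.03 with 1 FPKM.

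The PLD5 gene, on the minus strand of chromosome 1, spans positions 242246288 to 242687999 of GRCh37, a locus of 441712 bases with 4 coding transcripts. No other gene with a row in the table overlaps it. The 3 nearest genes with a row on either side were MAP1LC3C, BECN2 and EXO1 at lower coordinates and LINC01347, CEP170 and SDCCAG8 at higher ones. BECN2 was below the filter, and none of the other 5 passed the limma thresholds (adjusted p below 0.05, fold change over 1.5), beside 2.54% of all genes tested. EXO1, a DNA repair nuclease 188 kb from PLD5, averaged 25.8 ± 0.620 FPKM in shNT and 24.5 ± 1.74 FPKM (SD, n = 3 each) with the GPR81 label, which is -0.07 on the log2 scale (SE 0.07, adjusted p = 0.621, limma). CEP170, a centrosome protein, was 0.10 higher on that scale (SE 0.10, adjusted p = 0.665, limma). Within 5 Mb on either side 32 genes were tested, and 0 of them were past both thresholds in limma, and 0 had an unadjusted p under 0.05, where 2797 of the 14349 genes tested had one. Their median log2 fold change was 0.01, where the median of all genes tested was 0.01, and they ranged from -0.35 to 0.72. The 872 genes of chromosome 1 that averaged 5 FPKM or more also had a median of 0.01.

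**Figure D2:**
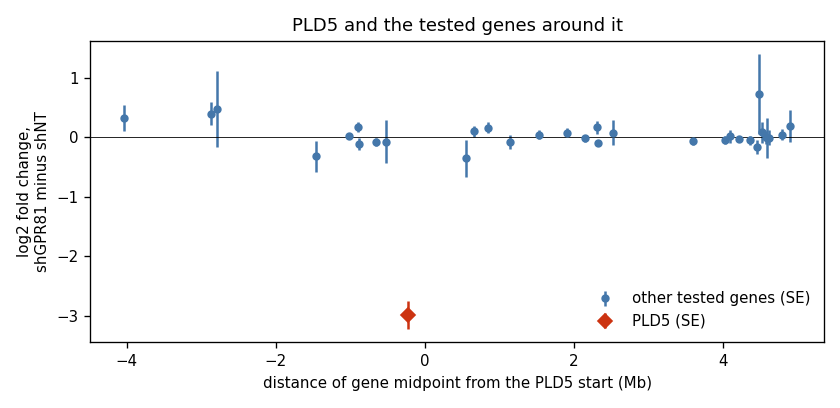
Log2 fold change (shGPR81 minus shNT, with SE) of PLD5 and of the 32 other tested genes whose midpoint lies within 5 Mb of the PLD5 start, by distance in Mb. PLD5 is at -2.98, and the other genes lie between -0.35 and 0.72.

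The genes with the pattern most like that of PLD5 over the 6 libraries were NLRP2, LPCAT1, RAE1, ZCCHC3 and RRAGD, by Pearson's r of log2(FPKM + 0.1) among the 11677 tested genes that averaged 1 FPKM or more. Their r was 0.998, 0.998, 0.997, 0.997 and 0.996. The libraries form 2 groups, so such an r mostly restates the difference between them, and it is given with no p. NLRP2, a member of the NLR family, averaged 3.88 FPKM in shNT and 0.0619 FPKM in the libraries labelled shGPR81. LPCAT1, which puts an acyl chain back on lysophosphatidylcholine, was at 71.4, 72.6 and 75.5 FPKM in shNT and at 50.2, 47.2 and 51.2 FPKM in the libraries labelled shGPR81. It differed by -0.56 on the log2 scale (SE 0.05). RRAGD, a RAG GTPase of the nutrient-sensing lysosomal complex, was at means of 2.89 and 0.718 FPKM, a difference of -1.88 on that scale (SE 0.15). These genes were picked for their likeness to PLD5, so their differences between the groups are given with no p. RAE1 and ZCCHC3 lie on chromosome 20, whose 269 genes that averaged 5 FPKM or more had a median log2 fold change of -0.40.

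PLD3 (GRCh37, chr19:40854363-40895379, plus strand) was the most abundant member. It stood at 39.9, 51.6 and 53.3 FPKM in shNT and at 55.8, 54.6 and 59.9 FPKM in the libraries labelled shGPR81, at the 87.2th percentile of the genes tested. The groups did not overlap, but shNT replicate 1 lay well below the other libraries. The means were 48.2 ± 7.28 and 56.8 ± 2.81 FPKM (SD, n = 3 each), a log2 fold change of 0.24 (SE 0.11). PLD3 made up 72.1% to 76.4% of the summed FPKM of the family in shNT and 78.1% to 78.8% in the libraries labelled shGPR81.

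PLD4 (chr14:105391050-105404098, plus strand), the relative of PLD3 known from myeloid and plasmacytoid dendritic cells, was listed at 0 FPKM in all 6 libraries and was not part of the fit. It overlaps AHNAK2 on the opposite strand, which was at 2.81 FPKM. No fold change was formed.

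PLD2 (chr17:4710447-4726729, plus strand), an enzyme of the plasma membrane, was at 4.85, 6.18 and 6.21 FPKM in shNT and at 6.55, 6.25 and 6.95 FPKM in the libraries labelled shGPR81. The groups did not overlap, with a gap of less than 0.1 FPKM between the highest shNT and the lowest shGPR81 value. The log2 fold change was 0.20 (SE 0.11). PLD1 (chr3:171318194-171528740, minus strand), found on endosomes and the Golgi, was at 4.72, 3.93 and 3.70 FPKM in shNT and at 4.11, 3.92 and 3.85 FPKM in the libraries labelled shGPR81. The groups overlapped, and the log2 fold change was -0.05 (SE 0.11). The sum of PLD1 and PLD2 was 9.86 ± 0.272 FPKM in shNT and 10.5 ± 0.324 FPKM (SD, n = 3 each) in the libraries labelled shGPR81. The ratio of PLD2 to PLD1 was 1.03 in shNT replicate 1 and between 1.57 and 1.81 in the other 5 libraries.

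PLD6 (chr17:17104309-17109647, minus strand) was at 4.74, 5.37 and 5.23 FPKM in shNT and at 4.83, 5.06 and 5.20 FPKM in the libraries labelled shGPR81. These values were whole multiples of 1 step (tolerance 1e-04 of the value) and stood for 155, 180 and 171 reads in shNT and 169, 175 and 180 reads in the libraries labelled shGPR81. The groups overlapped, and the log2 fold change was -0.02 (SE 0.09). The PLD6 locus overlaps MPRIP on the opposite strand, which was at 42.3 FPKM, and PLD3 overlaps C19orf47 there, at 10.9 FPKM. The kit kept the strand, but whether the counting used it is not given in the sources used here. Reads of such pairs therefore cannot be told apart. On their own strand, PLD6 overlaps another annotated coding gene and PLD3 another annotated gene, both without FPKM values. Strand cannot separate reads of those overlaps.

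A gene was called in limma at an adjusted p below 0.05 together with a fold change over 1.5. Of the 5 members in the fit 1, PLD5, was called, and lower, beside 2.54% of all genes tested (1.59% lower and 0.955% higher). Groups did not overlap for 3 members (PLD2, PLD3 and PLD5), as for 25.6% of the genes tested. Nothing is read from these counts, since the members were chosen on this comparison. The order of levels was PLD3, PLD2, PLD6, PLD1, PLD5 and PLD4 in both groups. In shNT the ranges of PLD2 and PLD6 overlapped, although PLD2 was above PLD6 in each of the 3 libraries, and all other neighbours had separate ranges. In the libraries labelled shGPR81 no neighbours overlapped. PLD3 exceeded PLD2 8.40-fold in shNT and 8.62-fold in the libraries labelled shGPR81, while PLD1 exceeded PLD5 3.50-fold in shNT and 62.2-fold in the libraries labelled shGPR81.

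**Figure D3:**
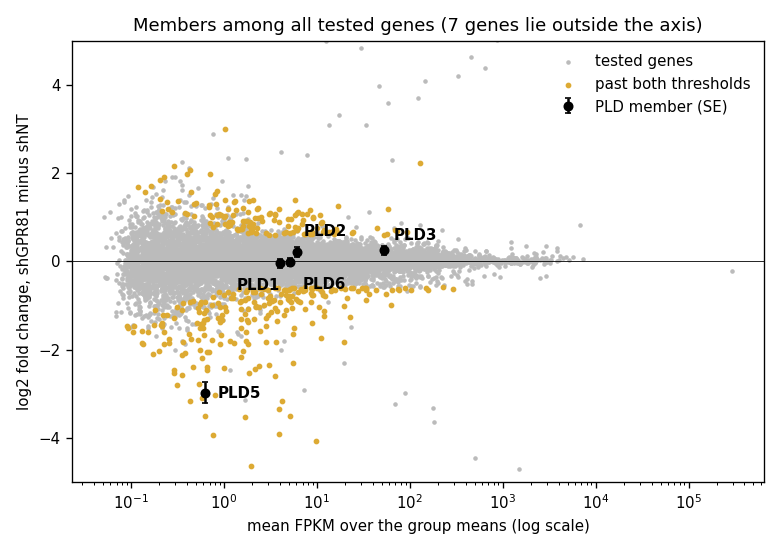
Log2 fold change (shGPR81 minus shNT) against mean FPKM on a log axis for the tested genes, with genes past both thresholds in yellow and the 5 tested PLD members in black with their SE (7 genes lie outside the axis). PLD1, PLD2, PLD3 and PLD6 lie between -0.05 and 0.24, and PLD5 is at -2.98.

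The library shNT replicate 1 differed from the other shNT libraries with the GC content of the transcript. With genes put in 10 bins by GC content, the median of its log2 level minus that of replicates 2 and 3 went from 0.18 in the lowest bin to -0.31 in the highest. The longest transcripts of PLD2 and PLD3 have a GC content of 57.9% and 59.8%, in bin 9 (median -0.23), and the members were lower in shNT replicate 1 by 0.35 and 0.39. PLD1, with 41.8% GC in bin 3 (median 0.12), was 0.30 higher there. PLD5, with 41.4% GC in the same bin, was at -0.07, so its level in that library was near that of the other shNT libraries. Without shNT replicate 1 the log2 fold change was 0.09 for PLD2 and 0.11 for PLD3, against 0.20 and 0.24 with it, and the part of GC content in these differences was not tested. For PLD5 it stayed between -3.09 and -2.80 with any of the 6 libraries left out. In the other 2 shNT libraries both PLD2 and PLD3 still lay below all libraries labelled shGPR81.

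**Figure D4:**
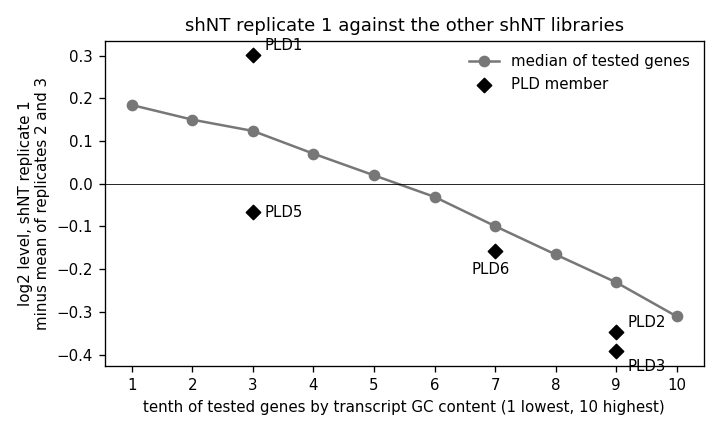
Log2 level in shNT replicate 1 minus the mean of shNT replicates 2 and 3, against 10 bins of genes by transcript GC content (grey line, median of 1218 or 1219 genes a bin; black diamonds, PLD members). The line falls from 0.18 to -0.31, with PLD2 and PLD3 low, PLD1 high and PLD5 near 0.

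Genes that act before, with or after phospholipase D were followed in 11 lists of 146 genes, of which 104 passed the filter. In limma 0 of the 104 were past both thresholds, beside 2.54% of all genes tested, while 26 had an unadjusted p under 0.05 and 3 an adjusted p under 0.05. Over all 14349 genes tested these were 2797 and 736. The median log2 fold change over the 104 genes was 0.02, beside 0.01 over all genes tested. The 3 genes were CYTH2, CDS2 and PLCG1, named after their values were seen. CDS2, a synthase that turns phosphatidic acid into CDP-diacylglycerol, averaged 8.08 ± 0.559 FPKM in shNT and 5.46 ± 0.227 FPKM (SD, n = 3 each) with the GPR81 label, -0.56 on the log2 scale (SE 0.08, adjusted p = 0.0098, limma). Without shNT replicate 2, or without shGPR81 replicate 1, CDS2 was past both thresholds. CDS2 and PLCG1, a phospholipase C at -0.24 (SE 0.05, adjusted p = 0.0374, limma), lie on chromosome 20. The part of that chromosome's lower level was not tested. In 13 alternative limma fits the adjusted p of PLCG1 ran from 0.0295 to 0.154, with 0.0709 for the replicate block. Whether PLCG1 was under 0.05 thus depended on the setting. CYTH2, an exchange factor for ARF GTPases, was 0.28 higher (SE 0.06, adjusted p = 0.0483, limma).

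Among 19 activators of PLD1 and PLD2, 17 were tested, 0 passed both thresholds and the median was 0.01. RHOA was at 328 and 320 FPKM and ARF1 at 319 and 323 FPKM in shNT and in the libraries labelled shGPR81. These small GTPases were among the abundant genes of the cells, at similar means in both groups. Of the 12 genes of new phosphatidic acid synthesis and its use (median -0.01), the acyltransferases AGPAT1 and AGPAT2 were the highest, and AGPAT2 was at 34.5 ± 7.73 and 44.7 ± 3.30 FPKM (adjusted p = 0.221, limma). Of 18 lipins, lipid phosphatases and diacylglycerol kinases, which interconvert phosphatidic acid and diacylglycerol, 14 were tested with a median of 0.17. Their highest genes were PPAP2C, a lipid phosphatase also called PLPP2, at 33.8 and 39.9 FPKM (adjusted p = 0.114, limma), and DGKZ, at 27.4 and 28.1 FPKM. Among 13 genes of choline uptake and phosphatidylcholine synthesis 9 were tested (median 0.05), led by PEMT at 51.0 and 52.5 FPKM and CHPT1 at 44.4 and 39.6 FPKM (adjusted p = 0.126, limma). The 7 tested of 8 phosphatidic acid effectors had a median of -0.02, with the sphingosine kinase SPHK1 at 13.6 and 13.7 FPKM.

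Genes around the nuclease members were also measured. Of 9 endolysosomal receptors, transporters and nucleases 6 were tested (median -0.07), led by RNASET2 at 21.4 and 22.9 FPKM and DNASE2 at 22.6 and 21.1 FPKM, enzymes that digest RNA and DNA. The Toll-like receptors of this list are named outside the rule for named genes given below. TLR3 averaged 2.04 FPKM in shNT and 1.92 FPKM in the libraries labelled shGPR81. TLR8 was listed at 0 in all libraries, and TLR7 and TLR9 averaged 0.0173 and 0.0501 FPKM over all libraries. Near PLD6, all 10 genes of mitochondrial fusion and fission were tested (median -0.03), with FIS1 at 94.3 and 91.0 FPKM and MFN2 at 49.4 and 47.8 FPKM. Of 11 piRNA genes only TDRKH, at 7.93 and 8.03 FPKM, and PIWIL1, at 1.24 and 1.26 FPKM, passed the filter. PLD6 was thus measured at about 5 FPKM in cells in which 9 of 11 piRNA genes were below the filter.

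PLD-like genes and other phospholipase families were set beside the PLD members. Among 15 PLD-type and PLD-like genes outside the family, not all of them enzymes, 9 were tested (median 0.11). The highest were FAM83D at 36.7 and 32.4 FPKM (adjusted p = 0.0756, limma) and the DNA repair enzyme TDP1 at 23.7 and 24.4 FPKM. Of 13 phosphoinositide phospholipases C 12 were tested (median 0.08), and PLCD3, the highest, was at 22.9 and 26.6 FPKM (adjusted p = 0.256, limma). Of 18 phospholipases A2 only 6 were tested (median -0.03), led by PLA2G16 at 58.1 and 49.9 FPKM (adjusted p = 0.0794, limma) and the lysosomal PLA2G15 at 7.18 FPKM in shNT (difference -0.03, log2). No list held a gene past both thresholds.

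**Figure D5:**
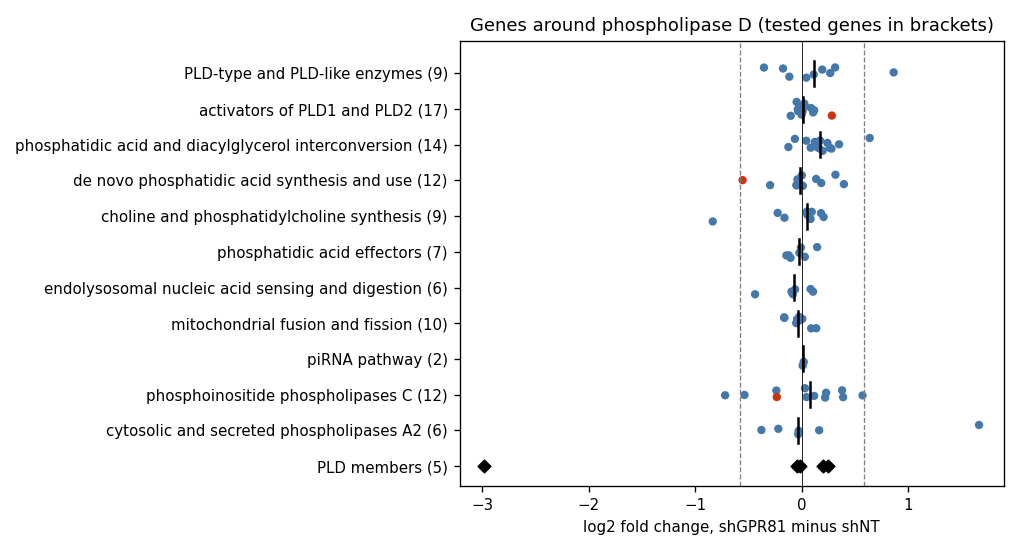
Log2 fold change (shGPR81 minus shNT) of the tested genes of each list and of the 5 tested PLD members (black diamonds), with black bars at the list medians, red points for an adjusted p under 0.05 and dashed lines at a fold change of 1.5. List medians lie between -0.07 and 0.17, and the lone point near -3 is PLD5.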

How the data were processed

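RNA-seq was measured in 3 shNT and 3 shGPR81 libraries. According to the study's methods, strand-keeping mRNA libraries (TruSeq) gave single reads of 75 bases, which were mapped to human hg19 (GRCh37) with TopHat 2.0.13, Bowtie2 2.2.3 and SAMtools 0.1.19. The submitters' notes name mm10 instead, and Cuffnorm 2.2.1. The gene annotation and strand setting are not given in the sources used here. The authors deposited FPKM, 1 column per library, which give no read numbers.

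Values were compared as log2(FPKM + 0.1) by the moderated test of limma 3.58.1 (R 4.3.3, mean-variance trend, no block) in the 14349 genes that reached 0.1 FPKM in 3 or more libraries. Calls needed an adjusted p below 0.05 (Benjamini-Hochberg) together with a fold change over 1.5. The fit was first tested on simulated data. Medians and counts describe the lists, with no set test.

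Members and lists were chosen with earlier results of these data known. Named are all members, HCAR1, list genes called or else the 2 highest of a list, the 5 genes most like PLD5 and its 3 nearest genes on each side. A gene that this rule names in the list of phosphatidic acid effectors is not reported here. Genes were placed with GENCODE release 44 on GRCh37, and GC content was matched for 96.3% of tested genes. RefSeq promoters were matched for 5 of 6 members. Reads were taken from FPKM that were whole multiples of 1 step in all libraries, which held for 4855 of 15931 genes.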

Additional observations from a re-analysis of the deposited data

How the results depend on the processing

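The difference of PLD5 lay between -4.13 and -1.03 on the log2 scale in 13 alternative fits (replicate block, each library left out, filters, added values and scalings). The number of members called was 1 in these and with treat, a count that the choice of the family fixes, and HCAR1 was between -0.78 and -0.22. Over all genes, 228 were lower and 137 higher. With each library left out in turn these were 121 to 256 and 65 to 152, with the lowest values when shNT replicate 2 (lower) or shGPR81 replicate 1 (higher) was absent and the highest when shNT replicate 1 was. With 1 FPKM added they were 142 and 75, and with limma's treat at a fold change of 1.5, 46 and 9. The replicate block gave 197 and 115, 1 member and 0 list genes, the last 2 counts as without it. The deviations of libraries with the same replicate number correlated at 0.12, 0.02 and 0.01 over the tested genes, so the numbers were not taken to pair the libraries. Of the list genes, 0 to 1 passed when a library was left out: CDS2 did when shNT replicate 2 or shGPR81 replicate 1 was absent. Neighbours in the order of levels with overlapping ranges numbered 1, and 0 to 1 with a library left out (0 without shNT replicate 1). The cause of these moves was not tested. At this depth PLD5 in the libraries labelled shGPR81 rests on few reads, and PLD4 at 0 says only that it is listed at 0.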

Other observations

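Some list genes had a log2 fold change beyond 0.58 in size and were not past the threshold on adjusted p (limma); they were picked after their values were seen. The choline transporter-like SLC44A3 was at 0.532 ± 0.204 FPKM in shNT and 0.249 ± 0.0836 FPKM (SD, n = 3 each) in the libraries labelled shGPR81, and PLCB2 was at 0.157 ± 0.0390 and 0.0566 ± 0.0324 FPKM. GDPD3, a lysophospholipase D, was at 0.433 ± 0.251 and 0.792 ± 0.156 FPKM. The lipin LPIN3 was at 0.441 ± 0.131 and 0.732 ± 0.155 FPKM, higher in the libraries labelled shGPR81 and on chromosome 20, where 259 of the 269 genes that averaged 5 FPKM or more, a set without LPIN3, were lower by sign alone. PLA2G4B was at 0.252 ± 0.258 and 0.799 ± 0.269 FPKM, with 0.000145 FPKM in shNT replicate 1. Adjusted p was 0.178, 0.267, 0.287, 0.224 and 0.195 in this order (limma).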
